A study of Mus musculus with 20 samples.

Results

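A pair of H3K27me3 peak lists of wild-type (WT) mouse embryonic fibroblasts (MEFs) at day 5 of reprogramming was compared, from cells that also received a FLAG control vector and from cells that overexpressed JMJD3. The 2 lists were picked by their labels, and their peaks were sorted by position alone: a peak was shared if at least 1 bp of it overlapped a peak of the other list. The FLAG list held 6428 peaks and the JMJD3 list 5064, so 11492 of the 53171 peaks in the series' 10 H3K27me3 lists were described, out of 94568 peaks in 14 lists of all kinds. Every peak was 1000 bp wide and carried a score whose scale is not stated, so peaks were compared by their rank within a list, given as a percentile in which the best-scored peak lies next to 100.

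Both groups were Jmjd3+/+ MEFs, labelled as strain C57BL/6J-OG2, which carries an Oct4-GFP reporter. They were taken within 3 passages, transduced with OSKM (Oct4, Sox2, Klf4 and c-Myc) and kept in embryonic stem cell medium with vitamin C. The paper states that its littermate WT and Jmjd3 knockout MEFs lacked this reporter, and whether the cells described here were such littermates was not resolved. The labels call the OSKM transduction lentiviral, whereas the protocol describes retrovirus made from pMXs vectors, and they call the cells presumed intermediates on the way to pluripotency. The groups differed in the additional vector alone, FLAG or Jmjd3. Cross-linked Drosophila S2 cells were mixed in before the immunoprecipitation with an anti-H3K27me3 antibody. Each group had 1 library, so no p-value could be computed. Intervals on shares are 95% Wilson intervals and those on differences of shares 95% Newcombe intervals. They reflect the counting error alone and treat neighbouring peaks as independent, which they are not. The culture was a mixture, so fewer cells with the mark and less of the mark per cell cannot be told apart, and a peak that is not listed is not a region without the mark.

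H3K27me3, the trimethylated lysine 27 of histone H3, is placed by Polycomb repressive complex 2 and marks genes that are kept silent, above all CpG-rich promoters of developmental regulators. JMJD3 (encoded by Kdm6b) and its relative UTX are the demethylases that remove it, and vitamin C supports the activity of this enzyme family. In reprogramming, fibroblasts take on an epithelial character early, and many pluripotency genes are switched on later. KLF4, the reprogramming factor that binds GC-rich and CACC motifs, takes part in the gain of epithelial gene expression.

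Of the peaks described, 10 are shown by the 200 bases around their middle, on the plus strand of mm10 (GRCm38), with every CpG in capitals. CpG dinucleotides are shown because CpG-rich DNA is where the mark is typically placed. The windows in the FLAG list alone were those of Cdkn1c (chr7:143459806-143460005, coding exon, 20 CpGs), Nxph3 (chr11:95513989-95514188, intron, 14 CpGs), Cdh1 (chr8:106603864-106604063, intron, 14 CpGs), Tdh (chr14:63508234-63508433, intron, 6 CpGs) and Cdkn2a (chr4:89277352-89277551, intron, 1 CpG). The shared ones were Aida (chr1:183299260-183299459, intron, 5 CpGs) and Sowaha (chr11:53479139-53479338, coding exon, 25 CpGs), both among the best-scored peaks of all, and Utf1 (chr7:139944456-139944655, coding exon, 17 CpGs). The windows in the JMJD3 list alone were Pou3f2 (chr4:22486989-22487188, coding exon, 8 CpGs) and Dmbx1 (chr4:115928289-115928488, intron, 2 CpGs). CpG numbers varied widely within a class.
Cdkn1c: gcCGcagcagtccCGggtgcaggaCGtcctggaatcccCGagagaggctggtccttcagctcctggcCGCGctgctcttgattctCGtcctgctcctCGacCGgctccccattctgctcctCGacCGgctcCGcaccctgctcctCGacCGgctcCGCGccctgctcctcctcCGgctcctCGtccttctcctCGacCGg
Nxph3: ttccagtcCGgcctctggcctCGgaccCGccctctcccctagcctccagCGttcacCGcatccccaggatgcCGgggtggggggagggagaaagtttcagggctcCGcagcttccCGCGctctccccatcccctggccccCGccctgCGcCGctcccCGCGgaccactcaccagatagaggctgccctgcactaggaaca
Cdh1: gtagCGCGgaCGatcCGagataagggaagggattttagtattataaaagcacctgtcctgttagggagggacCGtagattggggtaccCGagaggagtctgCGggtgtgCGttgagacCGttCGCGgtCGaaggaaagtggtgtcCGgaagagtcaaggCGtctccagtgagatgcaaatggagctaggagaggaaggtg
Tdh: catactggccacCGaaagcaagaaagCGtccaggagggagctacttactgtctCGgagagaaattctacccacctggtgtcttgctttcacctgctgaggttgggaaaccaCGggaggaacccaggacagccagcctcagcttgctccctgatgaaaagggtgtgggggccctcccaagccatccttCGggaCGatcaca
Cdkn2a: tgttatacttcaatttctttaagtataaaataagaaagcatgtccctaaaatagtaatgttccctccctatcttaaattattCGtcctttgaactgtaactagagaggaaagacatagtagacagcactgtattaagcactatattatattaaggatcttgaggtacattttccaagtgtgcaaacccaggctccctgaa
Aida: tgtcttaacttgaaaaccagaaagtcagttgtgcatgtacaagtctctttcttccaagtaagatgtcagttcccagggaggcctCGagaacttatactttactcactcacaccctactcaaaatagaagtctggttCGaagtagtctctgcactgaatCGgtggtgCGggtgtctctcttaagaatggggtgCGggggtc
Sowaha: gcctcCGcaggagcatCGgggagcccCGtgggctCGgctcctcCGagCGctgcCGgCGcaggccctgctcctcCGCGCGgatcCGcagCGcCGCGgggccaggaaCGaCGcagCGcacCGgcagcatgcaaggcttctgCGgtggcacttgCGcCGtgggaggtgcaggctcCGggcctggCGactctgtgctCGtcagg
Utf1: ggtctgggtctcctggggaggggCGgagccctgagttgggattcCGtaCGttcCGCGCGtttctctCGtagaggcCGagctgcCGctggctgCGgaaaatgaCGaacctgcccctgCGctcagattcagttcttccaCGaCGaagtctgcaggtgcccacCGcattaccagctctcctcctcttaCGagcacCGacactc
Pou3f2: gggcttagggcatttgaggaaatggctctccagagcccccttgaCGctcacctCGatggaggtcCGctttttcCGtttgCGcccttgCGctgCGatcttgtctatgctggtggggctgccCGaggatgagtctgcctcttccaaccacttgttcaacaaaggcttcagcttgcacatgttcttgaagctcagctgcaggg
Dmbx1: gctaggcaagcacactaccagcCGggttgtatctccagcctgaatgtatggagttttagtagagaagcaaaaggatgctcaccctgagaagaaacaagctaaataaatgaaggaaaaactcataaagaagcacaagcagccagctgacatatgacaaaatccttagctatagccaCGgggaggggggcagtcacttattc

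A further pair of windows shows the 200 bases around the middle of KLF4 peaks, from KLF4 chromatin of day 5 cells with JMJD3, that lay inside FLAG-only H3K27me3 peaks: Comp (chr8:70374685-70374884, intron) and Zic5 (chr14:122464448-122464647, coding exon). The Zic5 window is slightly wider than its KLF4 peak. Capitals mark matches to GGGNGTGG on either strand, a short form of the KLF motif. It matched 2 times in the Comp window and not in that of Zic5. Of the 14391 KLF4 peaks of that list, 4836 (33.6%) held a match in the 200 bases around their middle, against 4533 (13.8%) of 32851 RefSeq promoter windows of the same length. A match is a description of these letters and not a site.
Comp: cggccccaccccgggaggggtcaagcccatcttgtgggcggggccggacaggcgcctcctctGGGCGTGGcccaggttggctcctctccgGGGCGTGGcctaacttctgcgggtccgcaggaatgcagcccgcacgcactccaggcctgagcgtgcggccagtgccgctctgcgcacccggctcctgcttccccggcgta
Zic5: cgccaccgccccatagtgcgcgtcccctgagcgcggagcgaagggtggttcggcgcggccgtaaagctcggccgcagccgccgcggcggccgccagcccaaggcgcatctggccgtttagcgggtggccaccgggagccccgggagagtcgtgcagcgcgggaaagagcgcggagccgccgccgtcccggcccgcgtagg

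The FLAG-only peaks made up 2980 of the 6428 FLAG peaks, or 46.4% (45.1 to 47.6), and the JMJD3-only peaks made up 1624 of the 5064 JMJD3 peaks, or 32.1% (30.8 to 33.4). With the FLAG list reduced to its 5064 best-scored peaks the shares were 37.5% and 36.8%. Lists of equal length with mostly single overlaps must give nearly equal shares, so these values do not compare the lists. Both sets were weakly scored. The median score was 8.94 in FLAG-only peaks (interquartile range 7.38 to 12.8) and 23.8 in shared FLAG peaks (12.5 to 42.4). It was 8.23 in JMJD3-only peaks (7.16 to 10.1) and 16.3 in shared JMJD3 peaks (10.1 to 30.1). Split into deciles by score, 17 of the 642 best FLAG peaks (2.65%) had no JMJD3 counterpart, which climbed without a break to 516 of 643 (80.2%) in the last decile. The JMJD3 list went from 9 of 506 (1.78%) without a FLAG counterpart in the best decile to 341 of 507 (67.3%) in the last, and in each decile its share was below that of the FLAG list. The share of FLAG peaks without a counterpart thus went with the score.

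**Figure D1:**
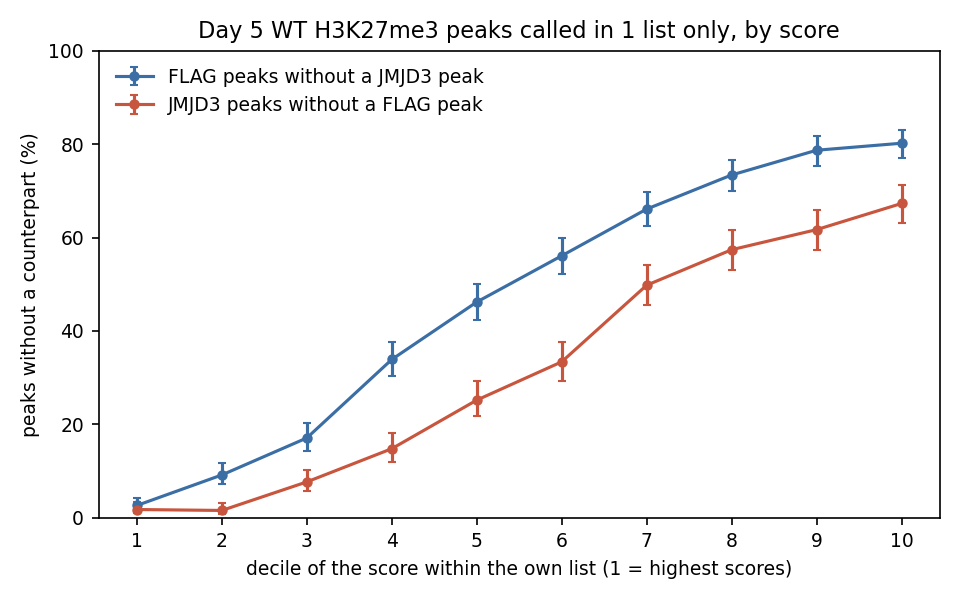
Share of peaks (%) of the FLAG list (2980 of 6428 in all) and of the JMJD3 list (1624 of 5064) that had no overlapping peak in the other list, by decile of score within the list, best decile on the left; points are shares and bars 95% Wilson intervals (counting error only). Both lines climb from under 3% to 80.2% (FLAG) and 67.3% (JMJD3), and the FLAG line is the higher one in every decile.

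Most unmatched peaks were not near misses, although some were. Of the FLAG-only peaks, 1528 (51.3%) lay 50 kb or more from any JMJD3 peak and 447 (15%) lay less than 5 kb from one. The JMJD3-only peaks were closer to the other list: 520 (32%) lay 50 kb or more away and 414 (25.5%) less than 5 kb away. All 10 of the best-scored JMJD3-only peaks near a gene, at Plxnc1, Duox2, Nkx1-1, Tlx3, Nxph4, Cecr2, Onecut3, Comp, Fgf9 and Pdx1, lay within 5 kb of a FLAG peak. At Fgf9, which encodes a fibroblast growth factor, the gap was 2 bp, and at Plxnc1, a semaphorin receptor, and Comp, a cartilage matrix protein, a FLAG-only and a JMJD3-only peak of the same gene lay 135 bp and 322 bp apart. Presence of a peak at a gene, within 5 kb of a transcription start site (TSS), was therefore used beside the overlap of single peaks.

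At the gene level, 3230 of 21951 protein-coding genes (14.7%) had a FLAG peak and 2412 (11%) a JMJD3 peak. Both lists marked 2203 genes. The FLAG list alone marked 1027, or 31.8% (30.2 to 33.4) of the genes it marked. The JMJD3 list alone marked 209, or 8.67% (7.61 to 9.85) of its genes. With the reduced FLAG list these shares were 26.8% and 11.1%. Genes with 1 FLAG peak lacked a JMJD3 peak in 980 of 2843 cases (34.5%), genes with 2 in 46 of 321 (14.3%), and genes with 3 or more in 1 of 66 (1.52%). A gene with more FLAG peaks has more places for a JMJD3 match, so this share falls with peak number by construction. Where both lists marked a gene, 1893 of 2203 (85.9%) had the same number of peaks in each. Ranking the genes by their best FLAG peak, the share without a JMJD3 peak was 2.35% in the best quartile, 15% and 40.6% in the middle ones and 69.3% in the last.

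Developmental regulators outside the Hox clusters that had a FLAG peak had a JMJD3 peak with few exceptions. Of 61 homeobox genes outside the Hox clusters with a FLAG peak, which encode DNA-binding regulators of embryonic patterning, 60 had a JMJD3 peak. The exception was Emx2, a forebrain regulator, whose FLAG peak stood at percentile 4.8. The homeobox genes were not all of high rank: 17 of the 61 lay in the lower quartiles of best rank, 12 in the third and 5 in the fourth, and 1 of these lacked a JMJD3 peak, against 40.6% and 69.3% of all genes in those quartiles. All 15 forkhead genes, all 9 Sox genes, all 5 GATA genes and all 9 T-box genes with a FLAG peak had a JMJD3 peak, as did 19 of 20 bHLH genes, against 2203 of all 3230 genes with a FLAG peak. Neither list marked 2 of 17 forkhead, 1 of 11 Sox, 1 of 6 GATA, 3 of 13 T-box and 5 of 25 bHLH genes. The bHLH exception, the neural regulator Neurog2, had a FLAG-only peak at percentile 80.4, but a further FLAG peak just upstream overlapped a JMJD3 peak whose edge was more than 5 kb from the TSS. On the JMJD3 side, Sox21 (percentile 39.8) and Tbx15 (18.6) were among the genes marked without a FLAG peak.

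Single peaks at these genes matched less well than the genes did. Of 116 FLAG peaks at homeobox genes, 31 (26.7%) had no overlapping JMJD3 peak, against 36.7% of all 3449 FLAG peaks near a TSS. Conversely, 29 of their 113 JMJD3 peaks (25.7%) had no FLAG counterpart, against 17.5% of all 2646 JMJD3 peaks near a TSS. At T-box genes 8 of 23 FLAG peaks (34.8%) and 2 of 16 JMJD3 peaks (12.5%) were unmatched, and at bHLH genes 4 of 28 (14.3%) and 3 of 26 (11.5%). At forkhead genes it was 8 of 28 (28.6%) and 6 of 26 (23.1%), at GATA genes 3 of 9 and 2 of 8 and at Sox genes 1 of 14 and 1 of 13. Most peaks at the genes of each of these lists thus had a counterpart. The homeobox genes with 1 FLAG peak lacked a JMJD3 peak in 1 of 25 cases (4%), against 34.5% of all genes with 1 FLAG peak.

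**Figure D2:**
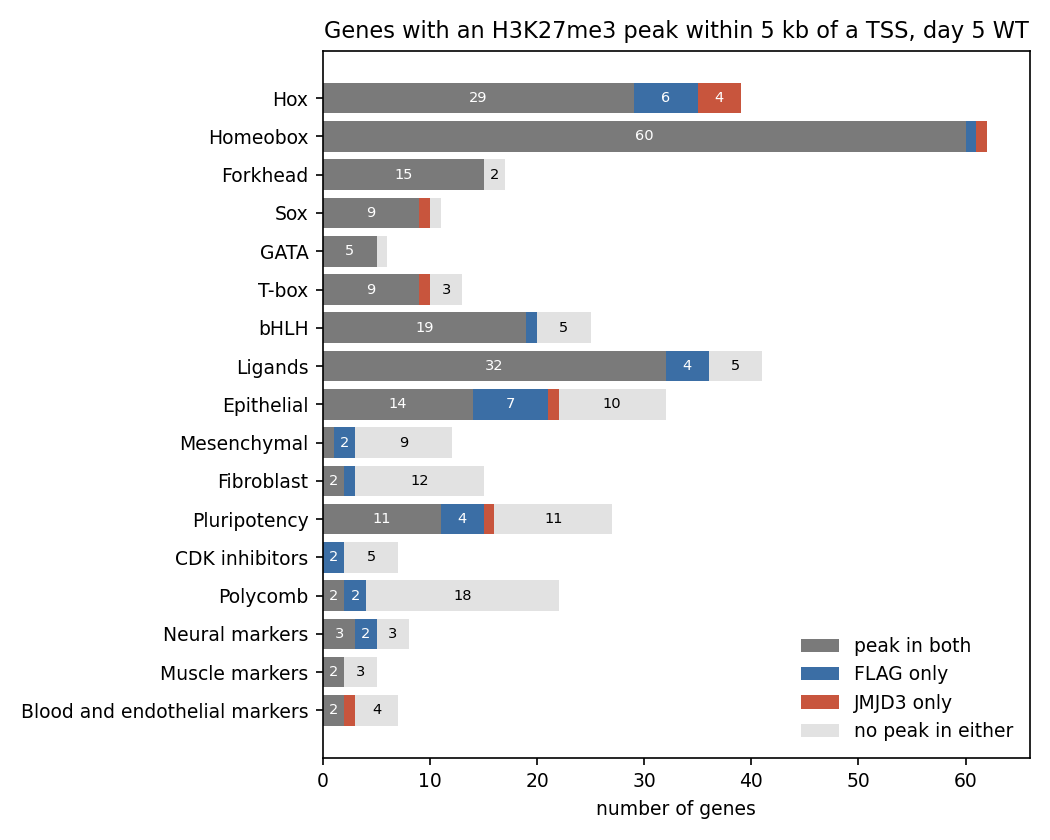
Number of genes of each list marked by H3K27me3 (5 kb around a TSS) in both lists, in FLAG alone, in JMJD3 alone or in neither, as stacked bars (1 bar per gene list, genes on the axis). Of the homeobox, forkhead, Sox, GATA, T-box and bHLH genes with a FLAG peak, all but Emx2 and Neurog2 are marked in both lists, whereas 7 of the 21 epithelial genes with a FLAG peak (33.3%, against 31.8% of all genes) and both CDK inhibitor genes with one are marked in FLAG alone.

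The Hox genes, which pattern the body axis and lie in 4 clusters, were the developmental group with the most differences. Of 39 Hox genes, 29 had a peak in both lists, 6 in FLAG alone (among them Hoxa2, Hoxa7 and Hoxd8) and 4 in JMJD3 alone (Hoxa5, Hoxa9, Hoxa11 and Hoxc12). The 6 of 35 make 17.1%, below the 31.8% of all genes, and the 4 of 33 make 12.1%, above 8.67%. By best rank, 0 of 5 in the best quartile, 4 of 19 in the next, 1 of 6 in the third and 1 of 5 in the last had no JMJD3 peak, against 2.35%, 15%, 40.6% and 69.3% of all genes. Of the single peaks at Hox genes, 16 of 46 FLAG peaks (34.8%, against 36.7%) and 18 of 50 JMJD3 peaks (36%, against 17.5%) were unmatched. Of the 10 Hox genes marked in 1 list, 8 belong to the Hoxa cluster. The FLAG-only peaks of the cluster lay, among other places, at Hoxa2 (percentile 71.3), in the interval that holds Hoxa3, Hoxa6 and Hoxa7 (35.2 and 68.9), and near Hoxa13. JMJD3-only peaks stood at Hoxa5 (66.2), Hoxa9 (48.5 and 28.1) and Hoxa11 (57.1). From Hoxa2 to Hoxa13, 5 of 8 FLAG peaks and 7 of 10 JMJD3 peaks were unmatched. In the Hoxb cluster, 3 of 20 FLAG peaks and 9 of 25 JMJD3 peaks were unmatched, in Hoxc 6 of 16 and 6 of 17, and in Hoxd 2 of 14 and 1 of 13. The number of peaks per stretch differed by at most 2 between the lists except in Hoxb, where JMJD3 had 5 more.

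**Figure D3:**
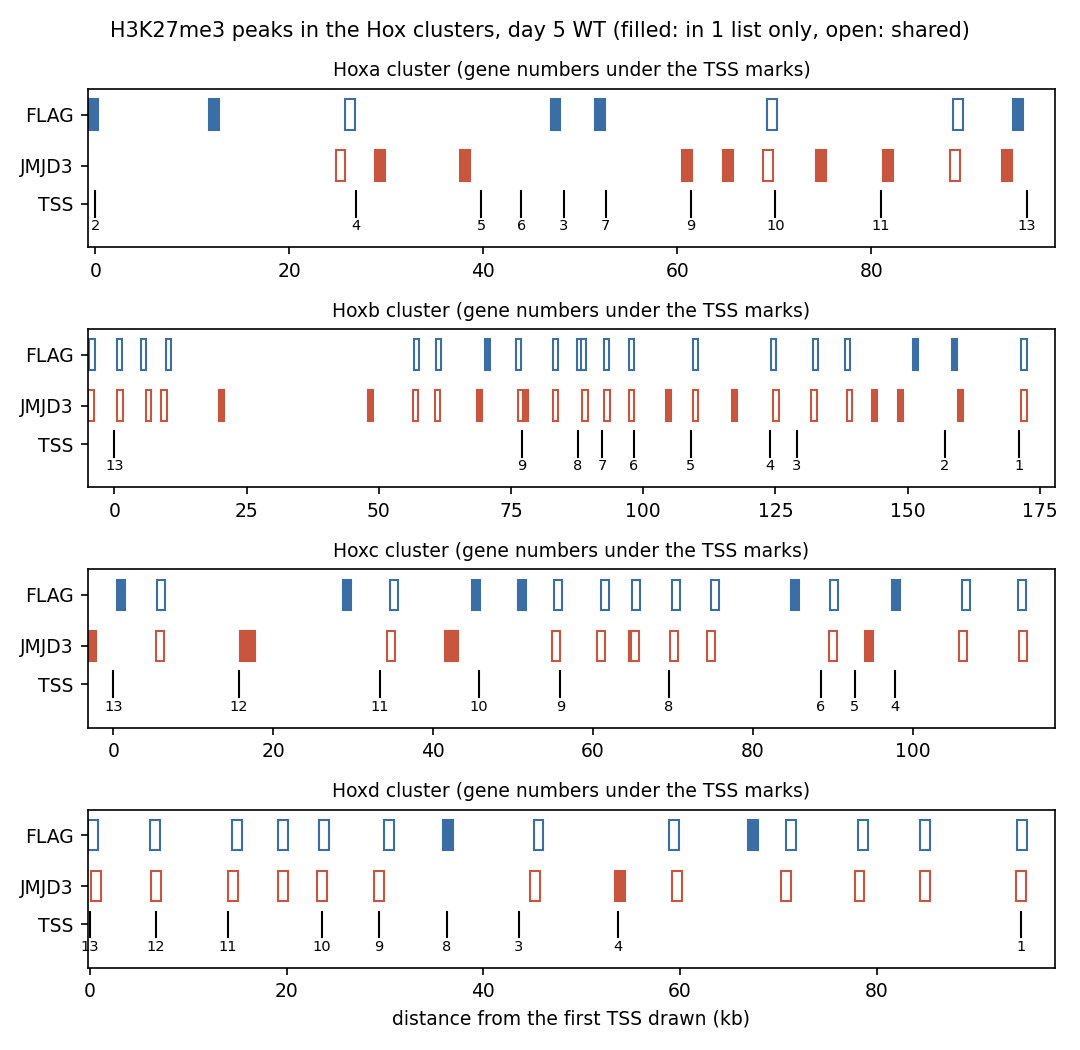
H3K27me3 peaks of the FLAG list (blue) and of the JMJD3 list (red) in the 4 Hox clusters, by distance from the first TSS drawn in kb (the Hoxa panel runs from Hoxa2 to Hoxa13); filled boxes are peaks found in 1 list only, open boxes are shared peaks, and black ticks are TSS with the gene number under them. In the Hoxa panel 5 of 8 FLAG and 7 of 10 JMJD3 peaks are filled, against 2 of 14 FLAG and 1 of 13 JMJD3 peaks in the Hoxd cluster.

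Signalling ligands (Wnt, Bmp, Fgf, hedgehog and Nodal families) were marked in both lists at 32 of 36 genes with a FLAG peak. The 4 in FLAG alone, 11.1% against 31.8% of all genes, were Wnt8b (percentile 12.1), Wnt16 (32.6), Fgf10 (51.7) and Lefty1 (49.6), all in the lower quartiles of best rank, and none of the 30 ligands in the upper quartiles was among them. Several ligands kept a peak at a far lower rank. Dhh, or desert hedgehog, stood at percentile 83.2 in FLAG and at 6.9 in JMJD3, Bmp8a at 71.6 and 6.3, and Bmp8b at 81.6 and 40.1. Of the 32 ligands marked in both lists, 7 were lower by more than 25 percentile points in JMJD3 and 0 were higher by that much. Over all 2203 genes marked in both lists, 401 (18.2%) were lower and 104 (4.72%) higher by that much.

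Epithelial genes, which encode cell junction and desmosome proteins and the regulators of the epithelial state, were marked by the FLAG list at 21 of 32 loci and by the JMJD3 list at 15. Of the 21, 7 had no JMJD3 peak (33.3%, against 31.8% of all genes): Cdh1 (E-cadherin), Dsp (desmoplakin), Pkp1 (plakophilin), Marveld3 (a tight junction protein), the splicing regulator Esrp2, and the grainyhead factors Grhl1 and Grhl3. Read by best rank, 0 of 8 in the best quartile, 1 of 3 in the next, 3 of 4 in the third and 3 of 6 in the last had none. The share over the group was thus close to that of all genes.

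Cdh1 had the best-ranked of these peaks, with a score of 36.58 (percentile 82.2) at chr8:106603464-106604463 in its intron. The nearest JMJD3 peak lay 91022 bp away, over the neighbouring cadherin gene Cdh3, whose own peak was shared and stood at percentile 90.6 in FLAG and at 74.9 in JMJD3. Dsp (chr13:38151181-38152180, coding exon) stood at percentile 59.4, Marveld3 at 58 and Esrp2 at 40.8. For Dsp and Esrp2 the nearest JMJD3 peak was 193418 bp and 199228 bp away, but for Marveld3 it was 5628 bp away, just past the limit. Krt7, a simple-epithelium keratin, was the only epithelial gene marked by JMJD3 alone, at percentile 1.3.

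Of the 14 epithelial genes marked in both lists, 3 stood more than 25 percentile points lower in JMJD3 and 1 as much higher, against 401 (18.2%) and 104 (4.72%) of all 2203. Ranks were nearly equal at several. The regulators Ovol1 (98.7 and 96.4, FLAG first), Ovol2 (92.3 and 95), Grhl2 (99.6 and 92.1) and Esrp1 (97.2 and 95.3) and the junction genes Cldn7 (98.4 and 98.4) and Ocln (93.7 and 93.1) differed by less than 10 points. The claudin gene Cldn4 (41.9 and 33.7) did too, at lower ranks, and Cldn3 (62.9 and 40.3) and the cadherin gene Cdh3 (90.6 and 74.9) differed by more. Epcam, a surface adhesion protein of epithelial and pluripotent cells, stood at percentile 92.4 in FLAG and at 34.9 in JMJD3. The desmosomal cadherin gene Dsg2 stood at 83.9 and 16.2, and the polarity gene Crb3 at 84.8 and 58.9. In the other direction, Lgr5, an epithelial stem cell receptor, stood at 8.4 and 63.3.

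Pluripotency genes were marked by FLAG at 15 of 27 loci and by JMJD3 at 12, with 11 in both lists. The 4 in FLAG alone (26.7%, against 31.8% of all genes) were Nanog, Tdh, Tdgf1 and Lefty1. Tdh encodes threonine dehydrogenase of embryonic stem cells, and its FLAG peak (chr14:63507834-63508833, intron) stood at percentile 63.2 with a score of 18.89. In the day 5 KO pair Tdh had a peak in both lists, at 47.5 in FLAG and 59.3 in JMJD3. Tdgf1, the Nodal co-receptor Cripto, stood at 42.1 and the homeobox regulator Nanog (chr6:122707359-122708358) at 17.4. None of the 8 pluripotency genes in the best quartile lacked a JMJD3 peak, whereas 2 of 5 in the third and 2 of 2 in the last did, against 2.35%, 40.6% and 69.3% of all genes in these quartiles. Among the 8, Utf1 stood at 99.8 in FLAG and at 99 in JMJD3, Esrrb at 96.9 and 99.1, Lin28a at 96.3 and 98.6, Prdm14 at 91.4 and 92.3, Sall4 at 94.8 and 72.8 and Fgf4 at 98.2 and 83.6. The orphan receptor gene Nr5a2 had 4 FLAG and 3 JMJD3 peaks, and its best rank was 50.6 and 86.1. Its relative Nr0b1 on the X chromosome was marked by JMJD3 alone (56.8). Neither list had a peak at Zfp42, Dppa2, Dppa3, Dppa4, Dppa5a, Gdf3, Tcl1 or Fbxo15.

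**Figure D4:**
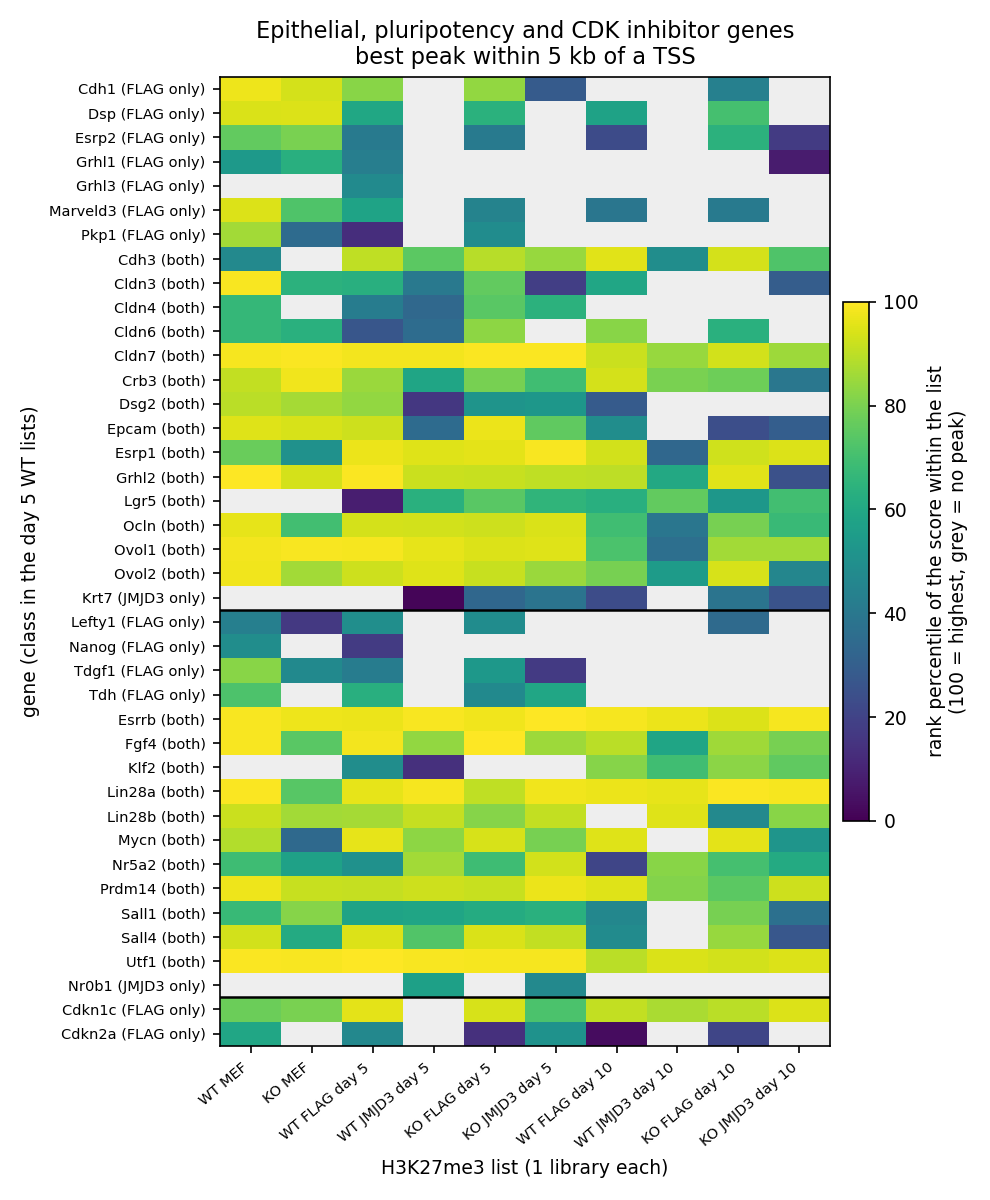
Best rank percentile (colour scale, grey where no peak lay within 5 kb of a TSS) of the epithelial, pluripotency and CDK inhibitor genes marked in either day 5 WT list, in rows, in each of the 10 H3K27me3 lists in columns. Cdh1, Dsp, Marveld3, Nanog, Tdh and Cdkn1c are coloured under WT FLAG day 5 and grey under WT JMJD3 day 5, whereas Utf1, Esrrb and Lin28a stand above 96 in both.

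Of the 7 CDK inhibitor genes, which encode brakes of the cell cycle, Cdkn1c and Cdkn2a had FLAG peaks and none had a JMJD3 peak, a count of 2 of 2 against 31.8% of all genes with a FLAG peak. Cdkn1c, an imprinted gene that encodes p57, was the second-best FLAG-only locus with no JMJD3 peak within 5 kb. It had a peak with a score of 79.02 (percentile 96) over its coding exon at chr7:143459406-143460405 and another with a score of 31.2 (percentile 78.2) upstream at chr7:143464756-143465755. The nearest JMJD3 peak was 13275 bp from the first. In the best quartile 19 of 808 genes (2.35%) had no JMJD3 peak, and Cdkn1c was 1 of them. All 8 other H3K27me3 lists of the series had a peak at Cdkn1c, between percentiles 71.6 and 94.8, so the day 5 WT JMJD3 list was the only one of the 10 without it. Cdkn2a, which encodes p16INK4A and p19ARF, had 1 FLAG peak at chr4:89276952-89277951 (score 12.18, percentile 46.5), in an intron and 4740 bp from the nearest TSS, with the nearest JMJD3 peak 410287 bp away. In the day 5 KO pair its rank was lower in FLAG (13.9) than in JMJD3 (51.1).

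Mesenchymal and fibroblast genes were mostly unmarked in both lists, as were 84.3% of all protein-coding genes. Of 15 fibroblast genes, 12 had no peak in either list, among them Col1a1, Col1a2, Col3a1, Postn and Dcn, and of 12 mesenchymal genes 9 had none, among them Vim, Fn1, Zeb1, Snai2, Prrx1 and Twist1. FLAG alone marked Snai1 (percentile 21) and Twist2 (55.3), transcription factors of the mesenchymal state, and Thy1 (61.3), a surface marker of fibroblasts. These were 2 of 3 mesenchymal and 1 of 3 fibroblast genes with a FLAG peak, against 31.8% of all genes. The lysyl oxidase gene Lox stood at 90.6 in FLAG and at 41.2 in JMJD3, and the receptor gene Pdgfra at 92.2 and 95. Of the Polycomb group, FLAG alone marked Bmi1 (87.1) and Cbx2 (54.4), subunits of Polycomb repressive complex 1, which makes 2 of 4 genes with a FLAG peak (50%, against 31.8%), while Cbx8 (98.4 and 92.8) was marked in both, and 18 of the 22 genes in neither. Of 8 neural markers FLAG marked 5 and JMJD3 3, so 2 of 5 (40%, against 31.8% of all genes) were in FLAG alone, Neurog2 and Gfap, of 5 muscle markers both lists marked Myod1 and Des, and of 7 blood and endothelial markers FLAG marked Tal1 and Kdr and JMJD3 marked these and Cdh5 (25.2).

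Over all genes, the best-scored FLAG-only peaks with no JMJD3 peak within 5 kb lay at Lad1 (percentile 96.4), which encodes the anchoring-filament protein ladinin, Cdkn1c (96), Nxph3 (92.6), which encodes a neurexophilin, the collagen gene Col15a1 (92.4), Moxd1 (92.3), Nfatc2 (91.1), a calcium-regulated transcription factor gene, Zic5 (91.1), a zinc-finger regulator of neural development, the potassium channel subunit gene Kcne3 (90.2), the glutamate receptor gene Grik4 (88.4) and Cyp1a1 (88.2), a target of the aryl hydrocarbon receptor. All but Zic5, Kcne3 and Cdkn1c lay more than 45 kb from the nearest JMJD3 peak. The peaks of Cdkn1c and Col15a1 were called in all 8 other lists, and that of Nfatc2 in 2. The corresponding JMJD3-only peaks were of lower rank, from percentile 79.1 at the vasopressin receptor gene Avpr1b down to 62 for the last of the 10. The neural homeobox genes Pou3f2 (76.6) and Dmbx1 (70) followed Avpr1b, and the FLAG peaks nearest to them lay 7187 and 9763 bp away.

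Shared peaks held ranks that were related but far from equal. Over 3448 shared FLAG peaks, Spearman's rho between both ranks was 0.63, given as a description because neighbouring peaks and both lists share sequence. The median difference was -3.13 percentile points (JMJD3 minus FLAG). Of these peaks, 585 (17%) stood more than 25 points lower in JMJD3 and 357 (10.4%) more than 25 points higher. The best shared peaks, at Aida, Sowaha, Amn, Gm10800, Tlx2 and Tmem121b, had the top score of 200 in the FLAG list, and all 6 were called in all 8 other lists. Those at Aida and Gm10800 also overlapped KLF4 peaks of both KLF4 lists. Their GC content was 41.4% and 35.3%, against a median of 57% in shared FLAG peaks. No filter for regions of high signal in any library was applied here, and whether these peaks reflect the mark was not tested.

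The greatest differences of rank at shared peaks named other genes. A4galt, which encodes a glycosphingolipid synthase, stood at percentile 94.1 in FLAG and at 9.3 in JMJD3. Mast4, a kinase gene, stood at 86.6 and 2.8, Tmem130 at 89.4 and 6.9, the calcium channel gene Cacna1d at 89.5 and 7.5 and the LIM-homeobox gene Lhx1 at 76.5 and 0.1. At some genes with several peaks the best ranks of the gene differed less than those of the peak. The peak at Dlx1 stood at 83.7 and 4.8, but the best peak of the gene at 83.7 and 55.4. Peaks at Tbx20 (0.8 and 88.9), Tbr1 (8.9 and 90), Foxd2 (12.1 and 89.3) and Olig3 (21.4 and 92.5) were far higher in JMJD3, whereas the best peaks of these genes stood at 66.2 and 88.9, 81.8 and 90, 96.4 and 99.3, and 91.9 and 92.5.

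Chaining FLAG peaks at most 5 kb apart gave 5745 domains, of which 2587 (45%, 43.7 to 46.3) had no JMJD3 counterpart for any of their peaks. This held for 2445 of 5226 domains of 1 peak (46.8%), for 142 of 480 domains of 2 to 3 peaks (29.6%, 25.7 to 33.8), and for 0 of 39 larger domains, which allows a share of up to 8.97%. A domain counted only if each of its peaks was unmatched, so this share falls with peak number by construction. Of the single peaks, 46.8% were unmatched in domains of 1 peak, 47% in those of 2 to 3 peaks and 30.2% in larger ones. Of the 39 larger domains, 29 had at least 1 unmatched peak. A domain without any JMJD3 counterpart at the scavenger receptor gene Scarf2 held 3 peaks over 9.6 kb, with the nearest JMJD3 peak 25.2 kb away. The domain of Cdkn1c held 2 peaks over 6.35 kb, and that of Zic5 2 peaks over 5.35 kb, 6.2 kb from the nearest JMJD3 peak. Some such domains had a JMJD3 peak at their edge: the gap was 0.002 kb at Fgf9, 0.285 kb at the Wnt inhibitor gene Wif1 and 0.34 kb at the homeobox gene Nkx1-1.

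FLAG-only and shared peaks differed in position and base composition, and JMJD3-only peaks differed more. A TSS lay within 5 kb of 42.5% of FLAG-only peaks (1267 of 2980), 63.3% of shared FLAG peaks (2182 of 3448) and 28.6% of JMJD3-only peaks (464 of 1624). The median distance to a TSS was 8.92 kb, 1.46 kb and 15.4 kb in that order. CpG-rich sequence, with over 50% GC and an observed-to-expected CpG ratio over 0.6, made up 15.8% of FLAG-only peaks, 38.9% of shared FLAG peaks and 3.94% of the 1623 JMJD3-only peaks with readable sequence. The median GC content was 51%, 57% and 47.4%.

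Most of the contrast between FLAG-only and shared peaks went with the score. The difference in the share near a TSS was -20.8 percentage points (-23.1 to -18.4) over all peaks and -1.39 as the mean of the score quartiles, with 6.4 and 0.883 in the better quartiles and -4.57 and -8.28 in the third and the last. For CpG-rich peaks it was -23.1 (-25.2 to -21) and -1.44, with quartiles from -3.17 to 1.3. In the best quartile 59.5% of FLAG-only and 61% of shared peaks were CpG-rich. Among the peaks whose windows are shown, the shared one at Aida was not CpG-rich (41.4% GC, ratio 0.183) although its rank was 99.9. Whether that peak reflects the mark was not tested. JMJD3-only peaks differed from the shared JMJD3 peaks within score quartiles as well. Scores still varied within a quartile, and unmatched peaks grew more frequent toward lower scores. The difference in the share near a TSS (JMJD3-only minus shared) was -20.5 points as the mean of the quartiles and -34.9 over all peaks (-37.5 to -32.1), and for CpG-rich peaks it was -21 and -29.2 (-31 to -27.3). In the best quartile 5 of 33 JMJD3-only peaks with readable sequence (15.2%) were CpG-rich, against 51.3% of 1232 shared ones, and of the peaks whose windows are shown that of Pou3f2 was CpG-rich (57.7% GC, ratio 0.649) and that of Dmbx1 was not (41.9% GC, ratio 0.275).

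Few of the peaks coincided with KLF4 or JMJD3 binding. A KLF4 peak (from day 5 cells with FLAG or JMJD3) or a JMJD3 position (from cells with FLAG-tagged JMJD3) overlapped 163 FLAG-only peaks (5.47%, 4.71 to 6.35), 167 shared FLAG peaks (4.84%, 4.18 to 5.61) and 11 JMJD3-only peaks (0.677%, 0.379 to 1.21). FLAG-only exceeded shared peaks by 0.626 points (-0.455 to 1.73), an interval that includes 0. Within quartiles of score the differences were 11.5, 6.22, 2.92 and 0.847 points from the best to the last, a mean of 5.36. JMJD3-only peaks held such sites less often than shared JMJD3 peaks, with a difference of -2.84 points (-3.57 to -2.06). JMJD3 positions alone overlapped 28 FLAG-only peaks (0.94%) and 15 shared ones (0.435%), a difference of 0.505 points (0.101 to 0.954).

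The best-ranked FLAG-only peaks with a binding site were at Comp (97.6), Lad1 (96.4), Cdkn1c (96), Etv2 (95.3), Nxph3 (92.6), Moxd1 (92.3), Igdcc3 (91.7), Zic5 (91.1), Elavl2 (91.1) and Zfyve28 (86). Etv2 is the ETS factor of blood vessel and blood formation. The peaks of Comp and Etv2 overlapped KLF4 peaks of both KLF4 lists, those of Cdkn1c, Lad1, Nxph3 and Moxd1 only of the list from cells with JMJD3, and that of Zic5 also held a JMJD3 position. The KLF motif shown above for Comp was found in none of the other 9 KLF4 windows. Among the 10, Comp, Etv2, Igdcc3, Elavl2 and Zfyve28 had a JMJD3 peak less than 1 kb away, whereas at Lad1, Cdkn1c, Nxph3, Moxd1 and Zic5 no JMJD3 peak lay within 5 kb.

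FLAG-only peaks were found less often in the other H3K27me3 lists than shared peaks. These were lists from untreated MEFs and from OSKM cells with FLAG or JMJD3 at day 5 and day 10, of WT and of Jmjd3-/- (KO) cells, which are labelled as strain C57Bl6J, each from 1 library. Of the FLAG-only peaks 806 (27%) were in none of the 8 other lists and 35 (1.17%) in all 8, and of the JMJD3-only peaks 574 (35.3%) were in none. Of the shared FLAG peaks 70 (2.03%) were in none and 1070 (31%) in all. WT MEFs had 37.5% of FLAG-only, 79.3% of shared and 26.2% of JMJD3-only peaks. KO cells with FLAG at day 5 had 39.6%, 83.4% and 21.9%, and KO cells with JMJD3 at day 5 had 33.6%, 89% and 37.9%.

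JMJD3-only peaks were thus more frequent in the KO list with JMJD3 (37.9%) than in the KO list with FLAG (21.9%), and FLAG-only peaks were more frequent in the FLAG list. As the mean of the score quartiles, the share of FLAG-only minus that of shared peaks was -16.7 points in the KO FLAG list and -35.1 points in the KO JMJD3 list. The lists differed in length, with 5643 and 6539 peaks in the order given.

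**Figure D5:**
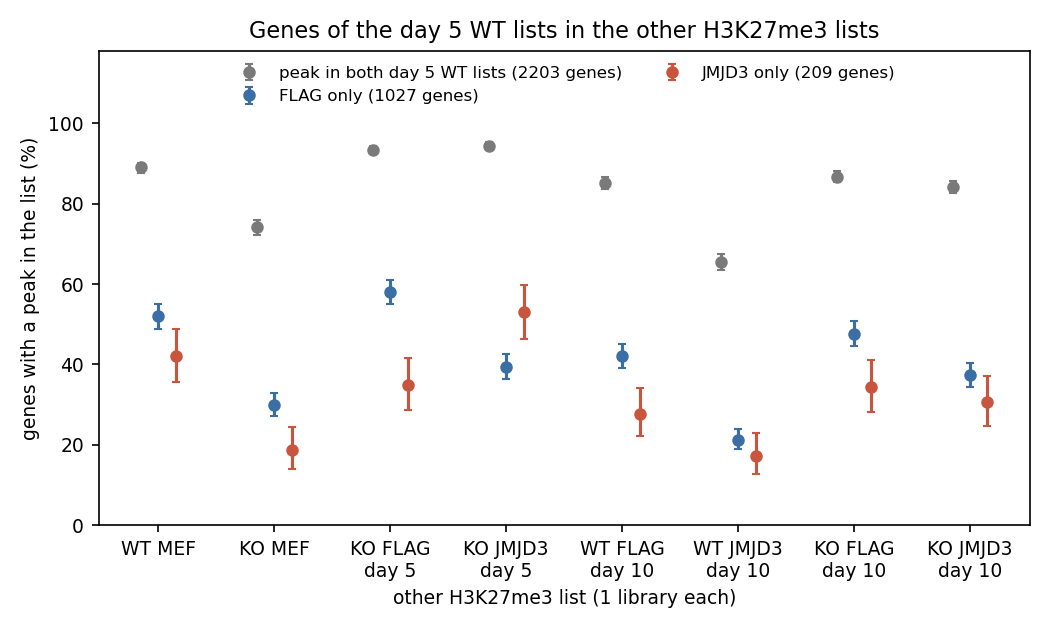
Share (%) of genes with a peak within 5 kb of a TSS in each of the 8 other H3K27me3 lists. Genes are split by the day 5 WT lists: marked in both (2203), in FLAG alone (1027) or in JMJD3 alone (209). Points are shares and bars 95% Wilson intervals (counting error only). Genes marked in both lie highest in every list (65.5% to 94.4%). Genes marked by JMJD3 alone lie above those marked by FLAG alone only in the KO JMJD3 day 5 list.

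The same held for genes. Of the 1027 genes marked by FLAG alone, 596 had a peak in the KO FLAG list at day 5, and 302 of these (50.7%, 46.7 to 54.7) had none in the KO JMJD3 list. Of the genes marked in both WT lists this was 79 of 2057 (3.84%). Within quartiles of best rank it was 47% against 7.42% in the third and 70.7% against 20.4% in the last. In the day 10 WT pair the shares were 64.9% (281 of 433) and 28.2%. Within quartiles of best rank they were 73.8% and 48.1% in the third quartile there. In the last quartile they were 62.3% (54.3 to 69.6) and 59.1% (50.6 to 67.1), whose intervals overlap. In the day 10 KO pair they were 45.4% (222 of 489) and 10.8% over all genes and 52.8% and 35% in the last quartile. Of the 209 genes marked by JMJD3 alone, 111 had a peak in the KO JMJD3 list at day 5, and 56 of these (50.5%) had none in the KO FLAG list, against 102 of 2080 (4.9%) of the genes marked in both.

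Of the 1027 genes, 40 were marked by FLAG and not by JMJD3 in all 4 pairs (3.89%). Of the 2203 genes marked in both day 5 WT lists, 18 (0.817%) were marked by FLAG and not by JMJD3 in all 3 other pairs. The best-ranked of the 40 were Nhlh1 (percentile 83.3 in the day 5 WT FLAG list), a neuronal bHLH gene, Rbm20 (79.8), a splicing factor gene of the heart, Synpo (79.3), Ntf5 (78.4), a neurotrophin gene, and Epn3 (69.6). From the fixed lists, Dsp and Marveld3 were among them. Dsp stood at percentile 94.4 in WT MEFs and at 59.4, 63.8, 57.8 and 70.5 in the 4 FLAG lists (WT and KO day 5, then WT and KO day 10). Marveld3 stood at 94.7 in WT MEFs and at 58, 44.7, 39.4 and 41.2. Cdh1 stood at 97.5 in WT MEFs, 82.2 and 83.8 in the day 5 FLAG lists and 28.6 in the KO JMJD3 list at day 5, and it had no peak in either WT list at day 10. All 6 Hox genes marked by FLAG alone had a peak in the KO JMJD3 list of day 5, where 39 of 39 Hox genes were marked.

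The genes carried by the vectors cannot be read as the others, since reads from a vector copy map to the exons of the gene. The part of the vector copies was not tested. Kdm6b had no peak within 5 kb of a TSS in either list. Counting peaks that overlap the gene itself, it had no FLAG peak and a JMJD3 peak over a coding exon (chr11:69404528-69405527, percentile 68.3). The KO JMJD3 lists of day 5 and day 10 had such a peak too, but the WT JMJD3 list of day 10 did not. Sox2 stood at 62.4 in FLAG and 50.6 in JMJD3 with peaks 410 bp apart, Klf4 at 62.6 and 64.7, and Myc was marked by JMJD3 alone (25.2). Pou5f1 had no peak in either day 5 WT list.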

How the data were processed

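The authors aligned ChIP-seq reads to mm10 with Bowtie2 (version 2.2.0 in the submitters' processing notes), called H3K27me3 peaks with DFilter and KLF4 and JMJD3 peaks with MACS2, and deposited 1 peak list per library. The deposited score of each H3K27me3 peak (6.57 to 200 in the lists compared) has no stated scale. The paper states that mouse H3K27me3 reads were scaled by the count of mapped Drosophila reads. Whether this scaling entered peak calling is not given in the sources used here. The peak lists carry no read numbers and those of the study were not used here, so no depth stands beside the counts and its part in list length was not tested. All value columns were mapped to samples. The members and gene lists were chosen with earlier results of these data known.

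Peaks were shared at 1 bp of overlap. The overlap code was tested on simulated lists and its counts checked against bedtools 2.31.1. Gene marking used peaks within 5 kb of a TSS of 21951 protein-coding genes (GENCODE M21 basic, any transcript). Quartiles split a list by score, or genes by their best FLAG peak. Sequence came from GRCm38 (samtools 1.23.1, pysam 0.24.0). CpG counts and intervals used Python 3.11.15, numpy 2.4.6 and scipy 1.17.1, and plots matplotlib 3.10.9. Genes named were members of the gene lists, the 10 best peaks of each class, the 10 largest differences of rank in each direction, the 10 largest FLAG domains without a counterpart, the 10 best FLAG-only peaks with a binding site, and the vector genes. The rule that set aside peaks with a peak of the other list within 5 kb, and the genes marked in all 4 pairs, were chosen after the data were seen. Alternatives changed the overlap, TSS distance, gene types, score limit, list length, chromosomes and the match by score. A few loci are not reported here.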

Additional observations from a re-analysis of the deposited data

Results flagged for a closer look

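Of all protein-coding genes, 3230 had a FLAG peak and 2412 a JMJD3 peak in the day 5 WT pair. These counts were 2996 and 2852 in the day 5 KO pair and 2660 and 1813 in the day 10 WT pair. The number of Hox genes with a peak differed by -2 between FLAG and JMJD3 (35 and 33) in the day 5 WT pair and by 8 (31 and 39) in the day 5 KO pair. For pluripotency genes the differences were -3 (15 and 12) in WT and 1 (13 and 14) in KO at day 5. Sox genes differed by 1 (9 and 10) in the day 5 WT pair, by -1 (10 and 9) in the day 5 KO pair and by -1 (9 and 8) in the day 10 WT pair. T-box genes differed by 1 (9 and 10) at day 5 and by -2 (9 and 7) at day 10 in WT. Blood and endothelial markers differed by 1 (2 and 3) at day 5 and by -1 (2 and 1) at day 10 in WT. The gene groups were singled out because the pairs pointed in opposite directions. Each pair had 1 library per group, so the difference between the pairs was not tested, and the Sox, T-box and blood values rest on 1 or 2 genes.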

How the results depend on the processing

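None of the 51 alternative values reversed a difference, but most of them were single shares, which cannot reverse. The binding difference, whose interval covered both signs, could not count as reversed either. With at least 50% of a peak covered the FLAG-only share was 55.6% and the JMJD3-only share 43.5%, with peaks within 1 kb counted as shared 43.5% and 28.5%, in the better-scored 50% of each list 39.2% and 22.8%, with the FLAG list reduced to the length of the JMJD3 list 37.5% and 36.8%, and with peaks within 5 kb counted as shared, a rule chosen after seeing the data, 39.4% and 23.9%. Genes marked by FLAG alone made up 35.2% at a TSS distance of 1 kb and 26.8% with the reduced list, and genes marked by JMJD3 alone 12.2% over all gene types and 11.1% with the reduced list. The share of peaks near a TSS was 31.2% (FLAG-only), 50.4% (shared) and 13.4% (JMJD3-only) at 1 kb and 53.2%, 72% and 40.1% over all gene types. Domains without a counterpart made up 36.4% with the reduced list. FLAG-only minus shared peaks called in the KO FLAG list of day 5 was -43.8 points, -29.9 with all lists reduced to 3045 peaks and -16.7 over score quartiles, and in the KO JMJD3 list -55.5, -52.5 and -35.1. The CpG-rich difference was -1.44 over score quartiles, and the binding difference 2.3 with peaks extended by 1 kb and 5.36 over score quartiles. Where the construction does not show it, the cause was not tested. Of the 51, 12 stayed within the counting interval and 39 moved beyond it. No paired analysis was possible because each group had 1 library. Depth was not weighed, since no read numbers were used.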

Other observations

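A JMJD3-only peak with the top score of 200 lay on chromosome 19 (chr19:61332519-61333518), 36 kb from the nearest protein-coding gene, Gm21060. All 1000 bases of the interval are unassigned in the reference sequence used here, and the peak was in none of the 8 other H3K27me3 lists. Among the FLAG-only peaks, 693 (23.3%) were called in WT MEFs and not in the day 10 WT FLAG list, 411 (13.8%) in the day 10 WT FLAG list and not in WT MEFs, and 424 (14.2%) in both. Among the shared FLAG peaks the figures were 585 (17%), 361 (10.5%) and 2150 (62.4%). Grhl3 and Fgf10 were marked by the day 5 WT FLAG list and in neither MEF list, whereas Cdh1, Dsp, Marveld3 and Esrp2 were marked in both MEF lists at percentile 72.6 or above. The share of FLAG-only peaks per autosome ran from 39.6% (chromosome 5) to 52.8% (chromosome 13).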
